A study of Mus musculus with 6 samples.

Results

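The 10 genes described here encode the enzymes that make melanin and the proteins that build the melanosome and keep its ions in balance: Tyr, Tyrp1, Dct, Pmel, Mlana, Slc24a5, Slc45a2, Oca2, Gpr143 and Gpnmb. They were taken by gene symbol from a table of 38924 mouse genes, and all 10 had a row and passed the filter on low counts, with at least 20 counts in every library. The table holds RNA sequencing counts of CD49f+ epidermal cells, that is, cells sorted from mouse skin for CD49f, the integrin alpha 6 chain that basal keratinocytes carry on their surface. The 3 K14-Cre+ samples had the genotype Rnaseh2b flox/flox with K14-Cre, a recombinase under the keratin 14 promoter, which is active in basal keratinocytes. The 3 K14-Cre- samples were Rnaseh2b flox/flox without the recombinase, so both groups share the floxed alleles. Strain, age and whether each sample is its own animal were not stated, so p-values reflect sample-to-sample spread that may partly be technical. Rnaseh2b encodes a subunit of RNase H2, which removes ribonucleotides from DNA.

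In mammalian skin, melanin is made by melanocytes, pigment cells of neural crest origin that sit among the basal keratinocytes and in hair follicles. Tyrosinase oxidises tyrosine, and tyrosinase-related protein 1 and dopachrome tautomerase act on later intermediates inside the melanosome, an organelle related to the lysosome. Fibrils of the Pmel protein form its scaffold, and transporters set its pH and calcium. Many of these genes are activated by the transcription factor MITF through E-box sequences, and melanocytes pass finished melanosomes to the keratinocytes around them.

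The promoters of the tyrosinase family are shown because the same stretch of letters occurs in all 3 of them and the transcripts moved in the same direction. Of the 10 genes, 6 had a promoter in the RefSeq table for GRCm38.p6, the build that matches mm10, each covering 250 bases before and 50 bases after the RefSeq start. Pmel, Mlana, Slc45a2 and Gpr143 had none. The windows of Tyr (chr7:87493463-87493762, minus strand), Tyrp1 (chr4:80833963-80834262, plus strand) and Dct (chr14:118052197-118052496, minus strand) read as follows on the strand of the gene, with each TCATGTG in capitals on either strand.
Tyr: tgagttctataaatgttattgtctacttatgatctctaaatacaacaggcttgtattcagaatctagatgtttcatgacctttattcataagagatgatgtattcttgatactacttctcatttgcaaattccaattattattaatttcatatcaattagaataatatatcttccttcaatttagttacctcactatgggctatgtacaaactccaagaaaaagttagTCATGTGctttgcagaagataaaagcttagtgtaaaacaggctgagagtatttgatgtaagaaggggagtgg
Tyrp1: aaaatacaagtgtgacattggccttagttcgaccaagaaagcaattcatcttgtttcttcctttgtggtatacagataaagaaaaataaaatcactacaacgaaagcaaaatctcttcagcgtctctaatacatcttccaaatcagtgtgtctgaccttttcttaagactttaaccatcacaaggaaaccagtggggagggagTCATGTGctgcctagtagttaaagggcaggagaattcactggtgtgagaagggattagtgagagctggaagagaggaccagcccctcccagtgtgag
Dct: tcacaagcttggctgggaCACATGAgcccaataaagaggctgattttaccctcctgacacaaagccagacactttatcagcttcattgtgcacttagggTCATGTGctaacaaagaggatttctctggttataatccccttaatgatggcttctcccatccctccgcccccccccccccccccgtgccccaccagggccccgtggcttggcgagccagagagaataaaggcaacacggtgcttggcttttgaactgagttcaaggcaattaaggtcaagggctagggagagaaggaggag

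Each of these 3 windows held the 10 letters GTCATGTGCT, on the strand of the gene, beginning 23 bases before the RefSeq start in Tyr, 48 bases before it in Tyrp1 and 152 bases before it in Dct. These letters are part of the sequence known as the M-box. They were chosen after the windows had been read, as the longest stretch around TCATGTG that all 3 windows share. Their occurrence in Tyr, Tyrp1 and Dct was therefore fixed by the choice. Over both strands they occurred in 61 of 32851 promoter windows in the table (0.186%). The shorter TCATGTG lies inside GTCATGTGCT, so the choice of letters fixed that it occurs in Tyr, Tyrp1 and Dct. With Slc24a5, on the opposite strand, it occurred in 4 of the 6 genes with a window, and in 3.77% of all windows. CATGTG, which lies inside both, occurred also in Oca2, against 14.2% of all windows. The E-box CACGTG occurred in 0 of the 6 and in 7.15% of all windows, and Gpnmb held none of the 4 letter strings in its window. The gene start in the count table lies 101 bases downstream of the RefSeq start for Tyr and 90 bases upstream of it for Tyrp1, so the distances depend on the start used. A match shows only that the letters are there.

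**Figure D1:**
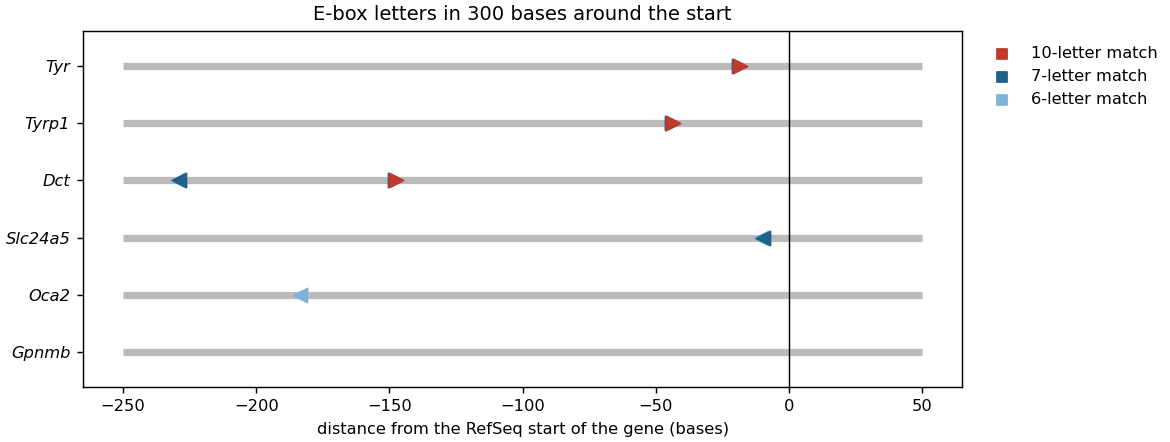
Positions of the E-box letter strings in the 6 promoter windows, as distance from the RefSeq start in bases; arrows pointing right lie on the strand of the gene and arrows pointing left on the opposite strand, red marks GTCATGTGCT, dark blue TCATGTG and light blue CATGTG. The red match stands in Tyr, Tyrp1 and Dct, and no match is drawn for Gpnmb.

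All 10 genes had more transcript in every K14-Cre+ library than in any K14-Cre- library, and 7 of them rose past the threshold. Levels are given as CPM, that is, counts scaled to the library's total over the tested genes and its TMM factor, and the threshold is an adjusted p of 0.05 in the quasi-likelihood test of edgeR over 15525 tested genes. Of all tested genes 0.406% rose and 0.110% fell past it, and in 14.1% every K14-Cre+ library lay above every K14-Cre- library. The median log2 fold change was 1.08 over the 10 genes and -0.0048 over all tested genes. Summed over the 10 genes, the K14-Cre+ libraries held 820, 823 and 740 CPM, against 377, 446 and 399 CPM in the K14-Cre- libraries. In these bulk samples, a change in the number of pigment cells and a change in RNA per cell cannot be told apart.

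**Figure D2:**
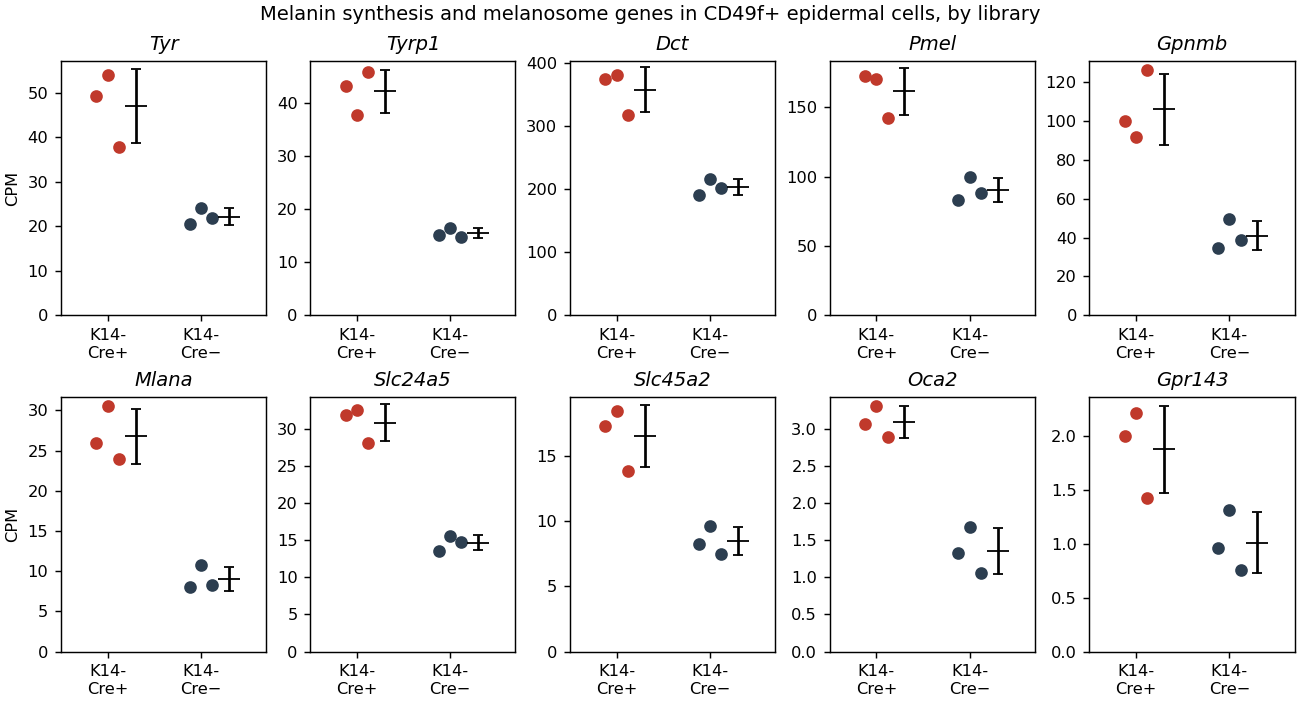
Level of each of the 10 genes in CPM (vertical axes, linear from 0), with 1 point per library, and to the right of each group its mean with SD as a bar (n = 3 each). In every panel the 3 K14-Cre+ points lie above the 3 K14-Cre- points, with the widest distance in proportion for Mlana and Tyrp1.

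Among the enzymes, Tyr, the tyrosinase gene whose product catalyses the rate-limiting step, had 49.2, 54.1 and 37.8 CPM in the K14-Cre+ libraries, against 20.5, 24.2 and 21.9 CPM in the K14-Cre- libraries. The lowest K14-Cre+ value, in replicate 3, still lay above all K14-Cre- values. The log2 fold change was 1.08 (± 0.14 SE, adjusted p = 0.0369 by edgeR), from means of 47.0 ± 8.34 CPM in K14-Cre+ and 22.2 ± 1.88 CPM in K14-Cre- cells (SD, n = 3 each).

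Tyrp1, whose product oxidises a late indole intermediate in the mouse, stood at 43.2, 37.8 and 45.8 CPM in K14-Cre+ cells, against 15.2, 16.5 and 14.7 CPM in K14-Cre- cells. Here K14-Cre+ replicate 3 was the highest library and not the lowest. The log2 fold change of 1.45 (± 0.10 SE, adjusted p = 0.00938 by edgeR) had the second smallest p of all tested genes, at rank 2 of 15525.

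Dct, the dopachrome tautomerase gene, had 376, 382 and 318 CPM in K14-Cre+ libraries, against 192, 217 and 203 CPM in K14-Cre- libraries. It had the smallest log2 fold change of the 10 genes, 0.82 (± 0.10 SE, adjusted p = 0.0339 by edgeR). The 2 groups stayed apart by more than 100 CPM between the lowest K14-Cre+ and the highest K14-Cre- library.

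Tyr, Tyrp1 and Dct lie on chromosomes 7 (87427405 to 87493411, minus strand), 4 (80834123 to 80851719, plus strand) and 14 (118012792 to 118052246, minus strand) of mm10. Their counted exons form 5, 8 and 8 blocks, and no other gene in the table overlaps them. Within the tyrosinase family the order of levels per exon length differed between the groups. Measured as CPM per kilobase of exon (RPKM), Dct was far the highest, at 159 ± 15.5 RPKM in K14-Cre+ and 90.1 ± 5.53 RPKM in K14-Cre- cells (SD, n = 3 each). In K14-Cre+ cells Tyrp1 at 14.9 ± 1.44 RPKM and Tyr at 14.2 ± 2.52 RPKM had overlapping ranges, whereas in K14-Cre- cells Tyrp1 at 5.47 ± 0.317 RPKM lay below Tyr at 6.71 ± 0.567 RPKM without overlap.

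Of the melanosome scaffold genes, Pmel, which encodes the fibril protein, had 172, 170 and 142 CPM in K14-Cre+ libraries, against 83.0, 99.9 and 88.3 CPM in K14-Cre- libraries. Its log2 fold change was 0.84 (± 0.11 SE, adjusted p = 0.0369 by edgeR), close to that of Dct. As for Dct, K14-Cre+ replicate 3 was the lowest of its group. Pmel lies on chromosome 10 (128706258 to 128720238, plus strand), and 4.60% of its exon length is shared with Dgka on the opposite strand, a gene that itself stood at -0.037 on the log2 scale (adjusted p = 0.909 by edgeR).

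Mlana encodes MART-1, a small melanosome protein needed for the processing of Pmel, and had the largest log2 fold change of the 10 genes. It lies on chromosome 19 (29697921 to 29708448, plus strand), and its level was 25.9, 30.5 and 23.9 CPM in K14-Cre+ cells, against 7.98, 10.7 and 8.26 CPM in K14-Cre- cells. The lowest K14-Cre+ library held 23.9 CPM, far above the 10.7 CPM of the highest K14-Cre- library. The log2 fold change was 1.57 (± 0.15 SE, adjusted p = 0.0181 by edgeR).

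Gpnmb encodes a membrane glycoprotein related to Pmel that is found in melanosomes and also in macrophages. It lies on chromosome 6 (49036518 to 49058182, plus strand) and had 99.7, 91.5 and 126 CPM in K14-Cre+ libraries, against 34.7, 49.5 and 38.9 CPM in K14-Cre- libraries. K14-Cre+ replicate 3 was the highest, as for Tyrp1. The log2 fold change was 1.36 (± 0.17 SE, adjusted p = 0.0339 by edgeR), and the call ended once sex, as told by Xist and the Y-linked transcripts, entered the fit as a covariate (adjusted p = 0.0636 by edgeR).

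Macrophage markers were also examined, because Gpnmb is expressed in macrophages. Of 9 markers, 2 rose and 0 fell, and 7 missed the threshold. Before adjustment, 7 of the 9 had a p below 0.05, against 18.8% of all tested genes. In K14-Cre+ libraries 7 of the 9 were higher without overlap, against 14.1% of all tested genes. The median log2 fold change of the 9 was 0.625. Their summed level was 139 to 180 CPM in K14-Cre+ and 111 to 122 CPM in K14-Cre- libraries. The microglia and macrophage receptor gene Trem2 rose by 1.52 (± 0.20 SE, adjusted p = 0.0369 by edgeR) and the lysozyme gene Lyz2 by 1.33 (± 0.17 SE, adjusted p = 0.0369 by edgeR) on the log2 scale. Both calls ended with sex as a covariate (adjusted p = 0.0661 for Trem2 and 0.0636 for Lyz2 by edgeR) and with total counts alone (0.0831 and 0.0662). Short of the threshold, Mpeg1, Mrc1, Adgre1, Cd68 and Ctss, named after their values were seen, had 0.9998, 0.65, 0.63, 0.49 and 0.37. Csf1r, the most abundant marker over all 6 libraries, had -0.037 (SE 0.14), a sign that turned when single libraries were left out. Tyrobp, also named after its value was seen, had -0.084 (SE 0.18), and its groups overlapped. None of the 9 was at 0 in all libraries. In K14-Cre+ cells the 9 markers averaged from 2.89 CPM for Trem2 to 34.7 CPM for Ctss, against 106 CPM for Gpnmb. Lyz2 averaged 14.8, Mpeg1 27.5 and Csf1r 30.9 CPM there. The part of these cells in the Gpnmb result was not tested.

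The next genes encode transporters and a receptor of the melanosome membrane. Slc24a5, which encodes an exchanger of sodium, calcium and potassium, had 31.9, 32.6 and 28.1 CPM in K14-Cre+ libraries, against 13.6, 15.7 and 14.8 CPM in K14-Cre- libraries. The groups were narrow and far apart, and the log2 fold change was 1.07 (± 0.10 SE, adjusted p = 0.0153 by edgeR). On chromosome 2 (125068124 to 125088677, plus strand), 39.5% of the exon length of Slc24a5 is shared with Myef2, which runs the other way. Myef2 averaged 23.6 ± 3.05 CPM in K14-Cre+ and 28.8 ± 0.414 CPM in K14-Cre- cells (SD, n = 3 each), a difference of -0.28 on the log2 scale (adjusted p = 0.222 by edgeR), opposite in sign to Slc24a5.

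Slc45a2, a transporter gene whose loss lightens the coat, had 17.3, 18.4 and 13.8 CPM in K14-Cre+ cells, against 8.26, 9.57 and 7.46 CPM in K14-Cre- cells. The values did not overlap, yet the log2 fold change of 0.97 (SE 0.15) missed the threshold narrowly (adjusted p = 0.0516 by edgeR). It passed under 5 of 7 other processing settings, among them the Wald test of DESeq2 (adjusted p = 7.89e-06). The gene lies on chromosome 15 (11000721 to 11029233, plus strand).

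Oca2, the pink-eyed dilution gene, whose product is a melanosome membrane protein involved in pH, was scarce. It had 100, 75 and 61 counts in K14-Cre+ libraries, against 33, 41 and 28 counts in K14-Cre- libraries, or 3.10 ± 0.211 and 1.36 ± 0.311 CPM (SD, n = 3 each). The log2 fold change was 1.19 (± 0.22 SE, adjusted p = 0.0780 by edgeR), so the gene did not pass despite separate groups. It spans chromosome 7 from 56239760 to 56536517 on the plus strand.

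Gpr143, the ocular albinism receptor gene, whose product sits in the melanosome membrane, was the rarest by count. It had 65, 50 and 30 counts in K14-Cre+ libraries, against 24, 32 and 20 counts in K14-Cre- libraries, equal to 1.998, 2.21 and 1.43 CPM against 0.963, 1.31 and 0.761 CPM. The log2 fold change of 0.89 (SE 0.29) did not pass the threshold (adjusted p = 0.187 by edgeR). The closest libraries of the 2 groups, at 1.43 CPM in K14-Cre+ and 1.31 CPM in K14-Cre- cells, differed little. The gene lies on the X chromosome (152781921 to 152808646, plus strand).

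**Figure D3:**
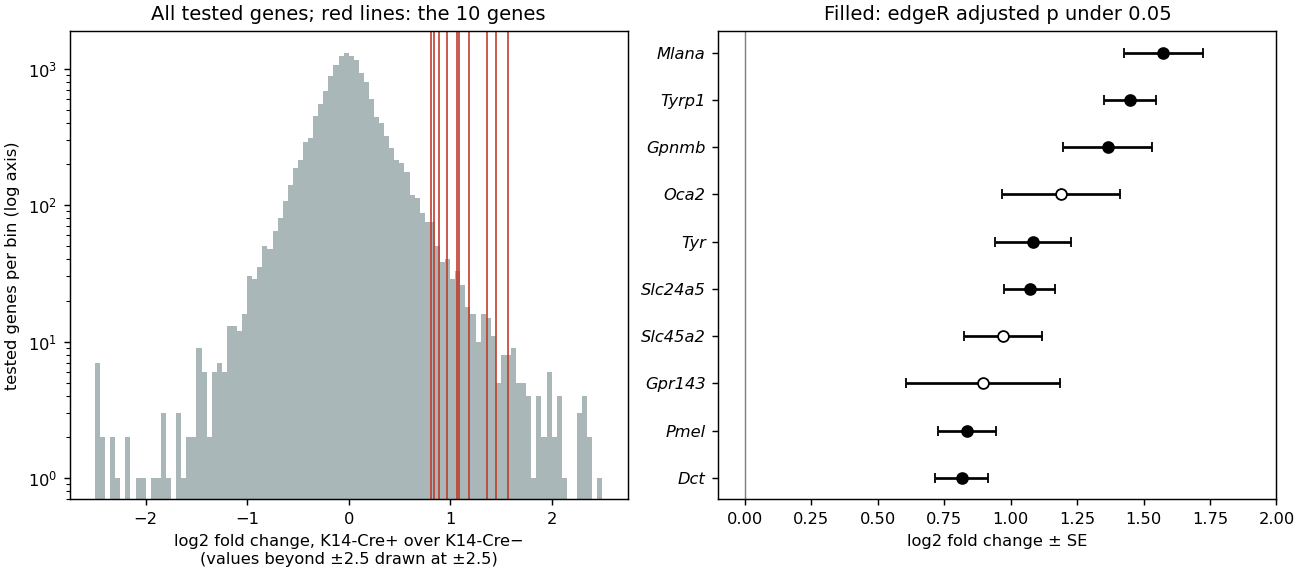
Left, histogram of the log2 fold changes of all 15525 tested genes (log vertical axis), with a red line for each of the 10 genes; right, the log2 fold change of each gene with its SE, filled where the edgeR adjusted p was under 0.05. The 10 genes lie between 0.82 for Dct and 1.57 for Mlana, and the open points are Slc45a2, Oca2 and Gpr143.

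Per exon length, the order of the remaining genes was the same in both groups from the top, with Dct followed by Pmel at 75.8 ± 7.95 RPKM in K14-Cre+ and 42.4 ± 4.06 RPKM in K14-Cre- cells (SD, n = 3 each). Mlana came next at 43.0 ± 5.43 RPKM in K14-Cre+ and 14.4 ± 2.42 RPKM in K14-Cre- cells, and Gpnmb after it at 27.8 ± 4.74 and 10.8 ± 2.02 RPKM. Mlana and Gpnmb did not overlap in K14-Cre+ cells but did in K14-Cre- cells. At the bottom, Gpr143 at 0.942 ± 0.204 RPKM in K14-Cre+ and 0.508 ± 0.140 RPKM in K14-Cre- cells could not be separated from Oca2 at 0.782 ± 0.0534 and 0.343 ± 0.0784 RPKM.

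The proportions among the 10 genes were compared within libraries. In each library, the count of each gene was set against that of Dct, which removes the library scaling. Dct had the smallest log2 fold change of the 10 genes, so this reference made positive differences likely in advance. The differences restate the fold changes above relative to Dct and are not separate evidence of a rise. Pmel stood at 45.9%, 44.5% and 44.6% of the Dct count in K14-Cre+ libraries, against 43.3%, 46.1% and 43.6% in K14-Cre- libraries, and the groups overlapped. Mlana stood at 6.89%, 7.98% and 7.51% of the Dct count in K14-Cre+ libraries, against 4.16%, 4.95% and 4.08% in K14-Cre- libraries, without overlap. The difference in log2 ratio, K14-Cre+ minus K14-Cre-, was 0.76 for Mlana and 0.02 for Pmel.

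Tyrp1 was at 11.5%, 9.89% and 14.4% of the Dct count in K14-Cre+ libraries, against 7.95%, 7.60% and 7.27% in K14-Cre- libraries, a difference in log2 ratio of 0.63. Gpnmb was at 26.5%, 23.9% and 39.6%, against 18.1%, 22.9% and 19.2%, with a difference of 0.55. Oca2, Tyr and Slc24a5 had smaller differences of 0.39, 0.26 and 0.26, also without overlap, and Slc45a2 (0.15) and Gpr143 (0.08) overlapped. Each of the 6 genes without overlap had an exact permutation p of 0.1 (two-sided, n = 3 each, adjusted p = 0.15 over the 9 ratios). This is the smallest p that 3 against 3 libraries allow, so none of the ratios could pass the threshold. Counted together, Dct and Pmel made up 66.8%, 67.1% and 62.2% of the reads of the 10 genes in K14-Cre+ libraries, against 72.8%, 71.0% and 73.0% in K14-Cre- libraries.

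**Figure D4:**
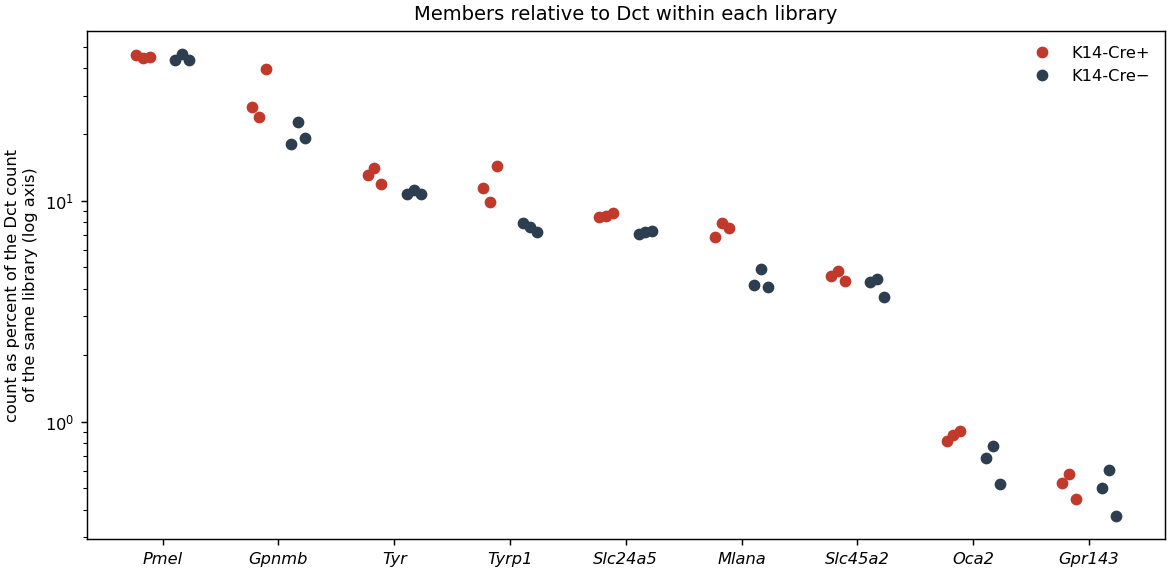
Count of each of 9 genes as a percentage of the Dct count of the same library (log axis), with K14-Cre+ libraries left of K14-Cre- libraries for each gene. Pmel lies near the same percentage in both groups, while the points for Mlana and Tyrp1 are higher in K14-Cre+ libraries.

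K14-Cre+ replicates 1 and 2 and K14-Cre- replicate 2 were male and the other libraries female, by Xist and Y-linked genes. Among males, all 10 genes were higher in K14-Cre+ libraries, with log2 differences of 0.68 to 1.39 (median 0.94, n = 2 and 1). Among females the differences ran from 0.69 to 1.78 (median 0.91, n = 1 and 2), also all positive. With sex as a covariate 7 of the 10 genes were called, Slc45a2 taking the place of Gpnmb. The call of the 10 genes rests on few libraries. Without K14-Cre+ replicate 1, 2 or 3 edgeR called 3, 1 and 8 of them, beside 25, 7 and 422 of all tested genes. Without K14-Cre- replicate 1, 2 or 3 it called 0 of them. There 9, 10 and 9 had an unadjusted p under 0.05, against 11.6%, 13.1% and 10.7% of all genes tested in those fits. In those last 3 fits edgeR called 0, 0 and 1 of all tested genes. All 10 log2 fold changes were positive in every fit without 1 library, from 0.72 for Gpr143 to 1.72 for Mlana.

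The sort was made on a keratinocyte surface protein, and the libraries carried keratinocyte transcripts at far higher levels than pigment genes. Krt5, a keratin gene of basal keratinocytes, had 7954 ± 215 CPM in K14-Cre+ and 8524 ± 761 CPM in K14-Cre- cells (SD, n = 3 each). Of 6 basal keratinocyte markers 0 passed by edgeR, and 1 had an unadjusted p below 0.05, near the 18.8% of all tested genes. The integrin genes Itgb4 and Itga6, which encodes CD49f, stood at 0.50 (SE 0.10) and 0.19 (SE 0.13) on the log2 scale. Pigment cell markers were present in every library: the 6 genes Mitf, Sox10, Pax3, Kit, Ednrb and Mc1r summed to 184 to 206 CPM in K14-Cre+ libraries, against 102 to 125 CPM in K14-Cre- libraries. Rnaseh2b itself fell to 4.18 ± 1.02 CPM in K14-Cre+ cells, against 21.4 ± 0.599 CPM in K14-Cre- cells (log2 fold change -2.34 ± 0.17 SE, adjusted p = 0.0102 by edgeR).

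The genes that specify and maintain pigment cells had mostly smaller log2 fold changes than the 10 genes, a difference that was not tested. The ranges overlapped, with Ednrb, Foxd3, Mc1r and Pax3 above the 0.82 of Dct. Foxd3, named after its value was seen, had 0.97 (SE 0.30) and Mc1r 0.95 (SE 0.22), both short of the threshold. Among 14 lineage and Kit signalling genes, 3 rose and 0 fell, and 11 missed the threshold, with a median log2 fold change of 0.57. Before adjustment, 8 of the 14 had a p below 0.05, against 18.8% of all tested genes. The median also covers the ligand genes Kitl and Edn3, listed again with the keratinocyte signals below. It covers abundant genes too, such as Erbb3 at 0.21 (272 CPM in K14-Cre- cells) and Tfap2a at -0.07 (191 CPM). Which cells gave these transcripts was not tested. Kit, the receptor for stem cell factor, rose by 0.80 (± 0.09 SE, adjusted p = 0.0264 by edgeR), Ednrb, the endothelin receptor gene, by 1.03 (± 0.15 SE, adjusted p = 0.0424 by edgeR) and Pax3, a transcription factor gene of the lineage, by 0.86 (± 0.12 SE, adjusted p = 0.0442 by edgeR). All 3 calls ended with total counts alone, and that of Pax3 also with sex as a covariate (adjusted p = 0.0636 by edgeR). Sox10, another such factor, had 0.70 (± 0.14 SE, adjusted p = 0.0887 by edgeR), with 22.7, 23.3 and 31.7 CPM in K14-Cre+ libraries, against 14.7, 16.5 and 16.5 CPM in K14-Cre- libraries. Mitf, named after its value was seen, had 0.42 (± 0.16 SE, adjusted p = 0.226 by edgeR), and its groups overlapped.

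Of 23 genes of melanosome biogenesis and transport 1 rose, 0 fell and 22 did not pass, with a median of 0.16. Before adjustment, 9 of the 23 had a p below 0.05, against 18.8% of all tested genes. In K14-Cre+ libraries 10 were higher without overlap, against 14.1% of all tested genes. Another 4 were lower without overlap, a count given here without the matching share of all tested genes, so it is not read further. The gene that rose was Mlph, which encodes melanophilin, the link between melanosomes and their motor, at 21.4 ± 4.47 CPM in K14-Cre+ and 6.29 ± 1.82 CPM in K14-Cre- cells (log2 fold change 1.77 ± 0.23 SE, adjusted p = 0.0369 by edgeR). With sex as a covariate this call ended (adjusted p = 0.0636 by edgeR), which left 0 called in the list. Its partner Myo5a, the motor gene, named after its value was seen, had 0.25. Mreg, Atp7a and Tpcn2 had 0.59, 0.46 and 0.38, short of the threshold. Many genes of this list are also used by other cell types for lysosome-related organelles.

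Among 5 genes of Pmel processing and sorting, 1 rose: Bace2, the protease that cuts Pmel, at 22.0 ± 0.580 CPM in K14-Cre+ and 12.8 ± 0.919 CPM in K14-Cre- cells (log2 fold change 0.78 ± 0.09 SE, adjusted p = 0.0217 by edgeR). Its call ended with total counts alone (adjusted p = 0.0964 by edgeR). Before adjustment, 2 of these 5 genes had a p below 0.05, against 18.8% of all tested genes. The sorting tetraspanin gene Cd63 had 0.33 and the proteases Furin and Adam17 had 0.39 and -0.07, none past the threshold. Of 5 tested genes of pigment type switching 1 rose, Slc7a11, the cystine transporter gene that supplies sulphur for pheomelanin, by 0.96 (± 0.13 SE, adjusted p = 0.0378 by edgeR). In this list too 2 of the 5 had an unadjusted p below 0.05, against the same 18.8%. Mc1r, the receptor that turns on eumelanin, had 38.5, 45.0 and 23.8 CPM in K14-Cre+ libraries, against 16.2, 20.5 and 18.7 CPM in K14-Cre- libraries. Its log2 fold change of 0.95 (SE 0.22) did not pass (adjusted p = 0.118 by edgeR). Mgrn1 and Atrn, genes whose loss darkens the mouse coat, had 0.25 and 0.15.

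Keratinocyte signals to pigment cells held 0 that passed by edgeR of 8 tested, while 1 had an unadjusted p below 0.05, a smaller share than the 18.8% of all tested genes, and a median of 0.0026. That gene was Kitl, which encodes stem cell factor, at 104, 103 and 58.5 CPM in K14-Cre+ libraries, against 47.7, 59.6 and 50.3 CPM in K14-Cre- libraries (log2 fold change 0.75 ± 0.22 SE, adjusted p = 0.166 by edgeR). Replicate 3 of the K14-Cre+ group lay within the K14-Cre- range. Bmp4 and Il1a had -0.58 and 0.17. Of 4 tested genes in the last list of pigment cell genes 0 passed by edgeR and 2 had an unadjusted p under 0.05, against 18.8% of all tested genes. These 2 were the channel genes Mcoln3 at 0.69 (SE 0.12) and Trpm1 at 0.44 (SE 0.11). Met and S100b had 0.083 and -0.024, signs that turned under other settings. Counting each gene once, 6 of 56 tested genes in these lists rose, against 0.406% of all tested genes, with a median of 0.23. Before adjustment, 22 of the 56 had a p below 0.05, against 18.8% of all tested genes. The Wald test of DESeq2 called 14 of the 56, edgeR with sex as a covariate 4, and edgeR with total counts alone 2.

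**Figure D5:**
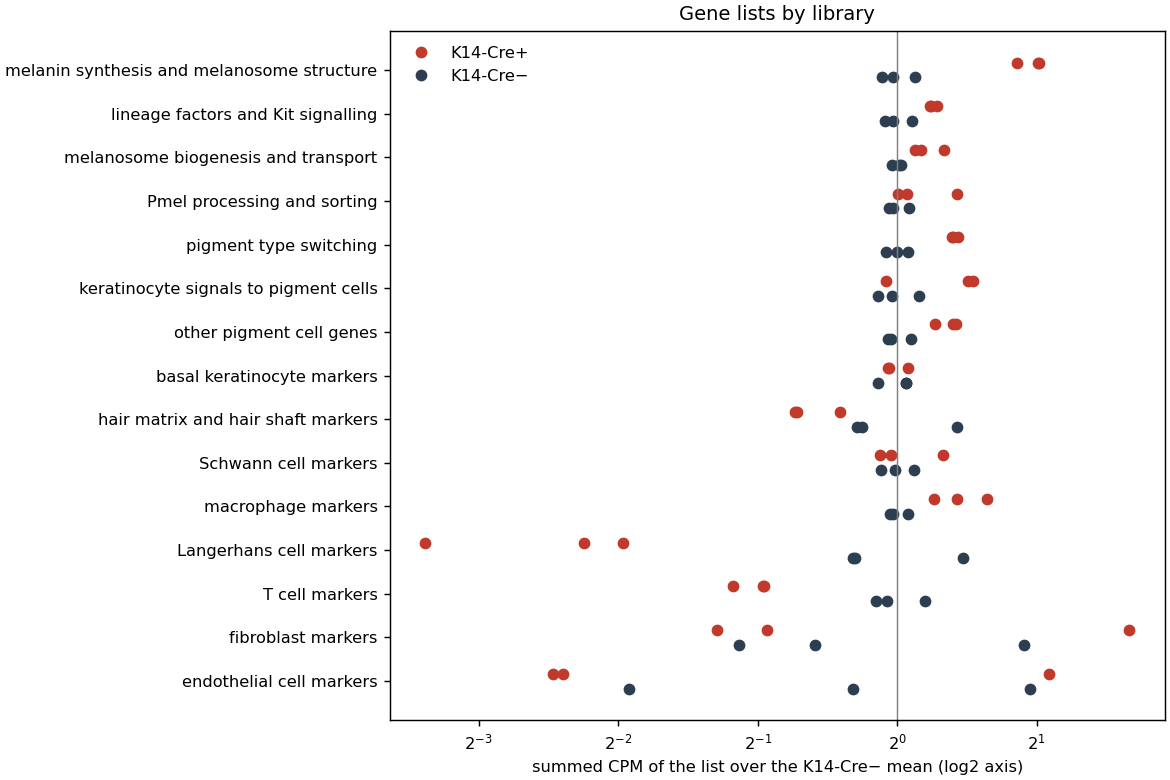
Summed CPM of each gene list in each library, divided by the K14-Cre- mean of that list (log2 axis), with K14-Cre+ libraries above K14-Cre- libraries in each row. The melanin synthesis and melanosome genes lie near 2 in K14-Cre+ libraries, while the lists named for Langerhans cells (mainly class II antigen presentation genes) and T cells lie below 1.

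Markers of other cells that can accompany pigment cells gave mixed values. Of 9 tested hair matrix and hair shaft genes 0 passed by edgeR and 5 had an unadjusted p under 0.05, against 18.8% of all tested genes. All 9 log2 fold changes were negative, and the summed level was 627 to 783 CPM in K14-Cre+ and 850 to 1396 CPM in K14-Cre- libraries. Krt71 and Krt35, keratin genes of the inner root sheath and the hair shaft, had -0.65 (SE 0.21) and -0.77 (SE 0.24). Schwann cells share their origin and several genes with melanocytes, and of 8 markers 0 passed by edgeR, while 2 had an unadjusted p below 0.05, near the 18.8% of all tested genes. Their summed level was 93.1 to 128 CPM in K14-Cre+ and 93.8 to 110 CPM in K14-Cre- libraries. Egr2, the most abundant of them, had -0.09, and Cdh19 and Prx had 1.31 (SE 0.38) and -0.41 (SE 0.12). The part of these cells in the results for the 10 genes was not tested.

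Langerhans cell markers had 1 that fell and 2 that did not pass of 3 tested, and summed to 6.56 to 17.5 CPM in K14-Cre+ and 54.9 to 94.5 CPM in K14-Cre- libraries. The 3 tested genes, H2-Ab1, H2-Aa and Cd74, all serve class II antigen presentation, so they do not identify Langerhans cells by themselves. The other marker of this list did not pass the filter on low counts. H2-Ab1, a class II antigen presentation gene, fell by 2.29 on the log2 scale (adjusted p = 0.0400 by edgeR), and Cd74, the invariant chain gene, had -2.42 (± 0.39 SE, adjusted p = 0.0572 by edgeR). The call of H2-Ab1 ended with sex as a covariate (adjusted p = 0.0770 by edgeR) and by limma-voom (adjusted p = 0.0566). T cell markers summed to 5.89 to 6.86 CPM in K14-Cre+ and 11.99 to 15.3 CPM in K14-Cre- libraries. Of 5 tested, 0 passed the threshold by edgeR, though 4 had an unadjusted p below 0.05, against 18.8% of all tested genes. Among them Cd3g and Nkg7 had -1.11 (SE 0.24) and -1.17 (SE 0.25). Fibroblast markers ranged from 176 to 1368 CPM in K14-Cre+ and from 196 to 811 CPM in K14-Cre- libraries, and endothelial markers from 1.82 to 21.3 CPM and from 2.65 to 19.3 CPM. K14-Cre+ replicate 1 was the highest for both lists, and K14-Cre- replicate 3 came next, at 811 and 19.3 CPM. The collagen genes Col3a1 and Col1a1 had 0.40 (SE 1.15) and 0.86 (SE 1.36), and -2.11 and -2.27 without K14-Cre+ replicate 1. The fibroblast gene Dcn had 0.093 (SE 0.14). The endothelial genes Kdr and Cldn5 had -0.67 (SE 0.84) and -1.82 (SE 1.14). Without K14-Cre+ replicate 1, Tyrp1 at 1.43, Mlana at 1.60 and Slc24a5 at 1.05 stayed called. Tyr at 1.05, Dct at 0.78, Pmel at 0.79 and Gpnmb at 1.41 lost their calls in the same fit, with adjusted p = 0.0732, 0.0676, 0.0713 and 0.0605 by edgeR.

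The genes with the pattern most like that of the 10 were found from their centred log2 CPM over the 6 libraries, by the root mean square difference from the median pattern of the 10. The 5 nearest genes outside the list were Rnf169 (0.069 log2 units), Gjc3 (0.074), Slc2a9 (0.090), Megf10 (0.099) and Shc4 (0.10). Among the 10 genes themselves the same measure ran from 0.070 for Slc45a2 and 0.086 for Tyr to 0.26 for Tyrp1, 0.26 for Mlana and 0.29 for Gpnmb. The scarce gene Oca2 was at 0.13 and Gpr143 at 0.18. With 6 libraries in 2 groups, likeness by this measure is mostly a like difference between the groups.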

How the data were processed

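For each of 6 libraries the authors deposited unnormalized counts of reads by gene, per the file headers, with each gene's exon length in bases. GSNAP served as aligner and featureCounts as counter, with mm10 as the build, per the submitters' processing notes. No source used here gives their versions, the strand option or how shared reads were handled, so reads of overlapping genes on opposite strands may be mixed. Libraries were made with a directional kit, per the labels' protocols.

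Library totals were 22948779 to 31718094 counts, and 3 counts equal 0.0922 to 0.143 CPM, a floor for counting error only. Of 38924 genes, 37607 were given a symbol by identifier. Genes kept by filterByExpr (minimum count 10) were scaled by TMM and tested with edgeR 4.0.16 in R 4.3.3, two-sided, without covariates, with Benjamini-Hochberg adjustment over 15525 genes. The SE is the log2 fold change divided by the root of the test's F. Log2 fold changes are K14-Cre+ over K14-Cre-. Ratios to Dct used 0.5 added to both counts and an exact permutation test. Replicates of a group differed by a chi-square per degree of freedom of 8.70 to 63.7, so no pair matched within counting noise, which does not show that they come from separate animals. The high end came from K14-Cre+ replicate 3, whose pairs had 45.6 and 63.7, while the remaining pairs had 8.70 to 13.7.

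The members and gene lists were chosen with earlier results of these data known. Named genes were the 10 members, Rnaseh2b, up to 4 genes per pathway list with the smallest p, the most abundant and up to 2 markers with the smallest p per cell type, and the 5 nearest patterns. Asip, Krt85 and 1 further gene of the lists are not reported here. Alternatives were DESeq2 1.42.0 size factors or Wald test, total counts alone, limma-voom (limma 3.58.1), no filter beyond 1 count, a mean of at least 1 CPM, sex as a covariate and leaving out each library. The fits were tested on simulated counts.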

Additional observations from a re-analysis of the deposited data

How the results depend on the processing

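All 10 log2 fold changes stayed positive under all 13 alternatives. The count of the 10 genes called was 7 to 9 under 6 of the 7 alternatives that kept all libraries, and 4 with total counts alone, which moved the median log2 fold change of all tested genes to -0.12. There Tyr, Dct and Pmel lost their calls (edgeR adjusted p = 0.101, 0.101 and 0.110). Oca2 was called by DESeq2 alone (adjusted p = 0.00315) and Gpr143 under none. Leaving out 1 library gave 0 to 8 called among the 10, 0 to 422 among all genes and 0 to 11 in the other lists. All genes called numbered 80, against 41 with total counts alone, 847 by DESeq2, 142 with no filter and 42 with sex as a covariate. Higher calls were 78.8% of these 80, 65.9% with total counts alone and 66.0% by DESeq2. In the other lists 2 genes were called with total counts alone, 4 with sex as a covariate and 14 by DESeq2, against 6. The ratio of Gpr143 to Dct turned without K14-Cre+ replicate 2 (-0.0037) or K14-Cre- replicate 3 (-0.104), within a range of -0.104 to 0.23. No paired analysis was possible because the labels give the libraries no shared replicate numbers. Of the genes named outside the 10, none of those below passed the test, and their sign turned as follows. With total counts alone Met stood at -0.032 and Dcn at -0.024, by limma-voom Col3a1 at -0.36 and Col1a1 at -0.013, and with sex as a covariate Col3a1 at -0.24 and Dgka at 0.015. Over the fits without 1 library, Col3a1 ran from -2.11 to 1.53, Col1a1 from -2.27 to 2.43, Dcn from -0.0053 to 0.25, Dgka from -0.20 to 0.075, S100b from -0.46 to 0.22, Egr2 from -0.29 to 0.031 and Csf1r from -0.15 to 0.098. The causes were not tested. Oca2 and Gpr143 had 20 to 100 counts per library, the fewest of the 10 genes.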
